A study of Oryza sativa with 18 samples.

Results

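The leaf transcriptome of the drought-tolerant rice P28 after 3 days of drought was set against that of well-watered P28. Genes were kept where the expression value reached at least 1 in either of these P28 groups, which left 18899 of the 39049 genes in the table. The difference of each gene was taken as log2 of the ratio of the droughted to the control value after adding 1 to both. Values were in FPKM (fragments per kilobase of transcript, scaled to the mapped fragments of a sample). Each group had 2 libraries, so 4 of the 18 libraries of the study stood behind the comparison.

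The groups were P28 after 3 days of drought and, as its reference, P28 without water stress, both sampled as leaves of pot-grown plants at tillering. P28 after 1 day of drought was a milder stage of the same treatment. P28 is an indica variety and the donor parent of the study. The other genotypes, each sampled under the same conditions, were Huang-Hua-Zhan (HHZ), the drought-sensitive recurrent parent, and H471, a tolerant introgression line with segments of P28 in an HHZ background. Water was withheld to start the drought, and days were counted from a set low soil water content, so the soil was drier on day 3 than on day 1. No transgene is named in the labels of any group. RNA of several independent plantings was pooled within a treatment before the libraries were made, and the hour of sampling was not given in the sources used here.

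Drought in a rice leaf is read largely through abscisic acid (ABA). The hormone binds PYR/PYL receptors, which then hold back clade A protein phosphatases 2C (PP2C), and this frees SnRK2 kinases (SAPK in rice) to phosphorylate bZIP factors that bind ABA-responsive promoter elements. Their targets include dehydrins and other late embryogenesis abundant (LEA) proteins, which protect membranes and proteins of drying cells. Prolonged drought also closes stomata, lowers carbon fixation and can start leaf senescence, in which chlorophyll is taken apart and carbon and nitrogen are remobilised.

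The deposited table gave a single value for each group, computed from both libraries together, so the P28 difference has no spread within a group and no p-value of its own. Genes were therefore described by size, with "higher" and "lower" marking an absolute log2 difference of at least 1. Where a test is given, it is limma on log2(FPKM + 1) over the 9 group values with genotype and treatment as terms. It asks whether the 3-day difference from the control, averaged over P28, HHZ and H471, exceeds the residual spread of the fit. That spread is how far treatment differences, day 1 included, vary between the genotypes. HHZ and H471 share most of their genome, so the genotypes are not independent replicates. The words "rose" and "fell" are used of that test alone (adjusted p under 0.05). Of the 20568 genes tested 27% rose and 30.1% fell, and counts of risen or fallen list members stand against these shares. P28 is itself 1 of the 3 genotypes in it, so a gene named for the size of its P28 difference is not supported by the test independently. The differences of HHZ and H471, which share no library with P28, are given beside those of P28.

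The summed FPKM over all genes was 870706 in P28 after 3 days and 816186 in the P28 control, within the range of 816186 to 984323 over the 9 groups. At least 1 FPKM was reached by 17457 genes in droughted P28 and by 17939 in its control. The 10 most abundant genes held 24.7% of the FPKM after 3 days and 16.9% in the control. The leaf label was checked against defining markers. Of the 5 mesophyll markers 3 were lower after 3 days and none was higher. The light-harvesting protein Lhcb1 (LOC_Os01g41710) stood at 535 and 1367 FPKM in droughted and control P28, and Lhcb2 (LOC_Os03g39610) at 267 and 243. In the same order the Rubisco gene RbcS (LOC_Os12g17600) stood at 445 and 3381 FPKM and Rca (LOC_Os11g47970) at 410.0 and 307. Of the 3 root markers, Lsi2 and RCc3 were listed at 0 in both groups, while the silicon channel Lsi1 stood at 12.4 FPKM after 3 days and 10.4 in the control. The 3 markers of dividing cells summed to 0.643 FPKM after 3 days and 0.631 in the control. In whole leaves, fewer cells of a type and less RNA per cell cannot be told apart.

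After 3 days of drought, 1869 genes were higher in P28 (9.89% of the kept genes) and 2771 were lower (14.7%), while 14259 passed in neither direction. Counts of higher and lower list members stand against these shares. The median log2 difference over all kept genes was -0.04, with quartiles at -0.57 and 0.43. Differences of at least 2 on the log2 scale were reached by 543 genes upward and 1009 downward, of at least 3 by 189 and 388, and of at least 5 by 32 and 29. Lower genes were thus more frequent than higher ones up to the largest differences, where the counts were similar. By the rule that chose them, the higher genes took a larger share of expression after drought and the lower genes a smaller one: the higher genes held 23.8% of the FPKM of droughted P28 against 7.45% in the control, and the lower genes 5.21% against 22.2%. Among the higher genes 112 were listed at 0 in the control, and among the lower genes 202 were listed at 0 after 3 days.

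**Figure D1:**
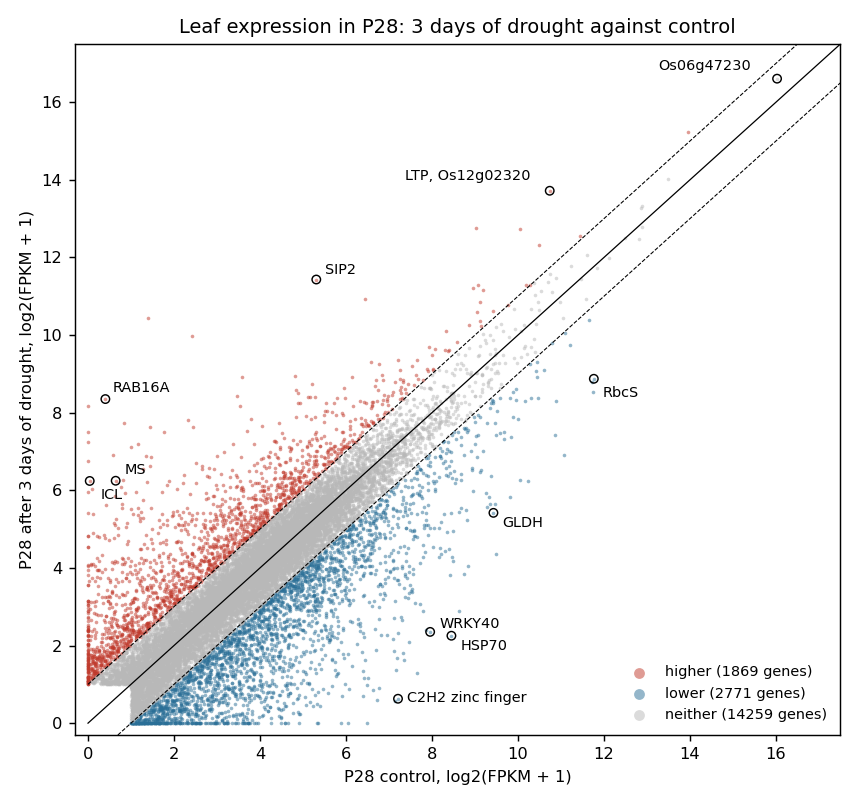
Expression of the 18899 kept genes in P28 after 3 days of drought (y axis) and in the P28 control (x axis), both in log2(FPKM + 1), with 1 point per gene. The solid line marks equal values and the dashed lines a log2 difference of 1 in either direction. The 1869 higher genes lie above the upper dashed line and the 2771 lower genes below the lower one.

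Close to the size limit the counts were dense. With a log2 difference of just over 1 there were 255 higher and 304 lower genes, and with one of just under 1 there were 296 and 375, so the totals depend on where the limit is set.

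The largest increases among described genes were led by lipid-transfer proteins, dehydrins, a phosphatase of ABA signalling and both enzymes that define the glyoxylate cycle. LOC_Os05g47730, a protease inhibitor and lipid-transfer family protein, stood at 287 FPKM in droughted P28 and was listed at 0 in the control. LOC_Os04g33920 of the same family stood at 151 FPKM after 3 days and was also listed at 0 in the control. The dehydrin RAB16A (LOC_Os11g26790) had 325 FPKM in droughted P28 against 0.323 in the control, a log2 difference of 7.95. These transcripts were close to absent in watered leaves and among the well-expressed ones in dry leaves. The same held in the other genotypes, where RAB16A had 558 FPKM in droughted HHZ and was listed at 0 in its control, and had 407 against 0.835 FPKM in H471.

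STR18 (LOC_Os12g24020), a sulfurtransferase of the rhodanese fold, had 211 FPKM in droughted P28 against 0.794 in the control. The PP2C gene LOC_Os05g38290, described as the homolog of HAI2 (highly ABA-induced), had 118 against 0.504 FPKM. SIP2 (LOC_Os07g10840), a raffinose-family alpha-galactosidase in Arabidopsis, was the most abundant of the 12 genes with the largest increases, with 2759.7 FPKM after 3 days against 38.6 in the control. ENODL9 (LOC_Os06g46740), an early nodulin-like protein, had 144 against 1.23 FPKM, and LOC_Os03g17790, annotated as responsive to low temperature and salt, had 137 against 0.998. The last of the 12 was a second photosystem II subunit R gene (LOC_Os07g05365), with 117 FPKM in droughted P28 against 1.53 in the control. All 12 rose in the limma test across genotypes, with adjusted p from 2.22e-06 to 2.00e-05. That test holds the P28 values by which the 12 were chosen, so it is not independent support. One undescribed gene, LOC_Os03g61160, named here after its values were seen, exceeded them all with 1389 FPKM after 3 days and 1.62 in the control, a log2 difference of 9.05.

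The largest decreases held transcription factors, calcium-signalling proteins and defence genes. A C2H2 zinc finger gene (LOC_Os11g47630) had 0.546 FPKM in droughted P28 against 147 in the control, a log2 difference of -6.58. The peroxidase LOC_Os07g48050 had 0.485 against 140.2 FPKM. LSU1 (LOC_Os02g03710), whose Arabidopsis homolog responds to low sulfur, had 1.47 against 201 FPKM, and an HSP70 chaperone (LOC_Os03g16860) had 3.76 against 349. After 1 day of drought, LSU1 and this HSP70 still stood at 161 and 318 FPKM, close to their controls, whereas the zinc finger gene and the peroxidase were already at 0.562 and 0.428.

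CML42 (LOC_Os05g24780), a calmodulin-like calcium sensor, had 6.4 FPKM in droughted P28 against 397 in the control, and a calmodulin-binding protein (LOC_Os08g27170) had 0.519 against 105. Among WRKY factors, the homologs of WRKY70 (LOC_Os03g21710) and WRKY40 (LOC_Os09g25060) had 0.613 against 82.8 FPKM and 4.1 against 248 FPKM. The beta-glucanase PR2 (LOC_Os01g51570), a pathogenesis-related protein, had 0.975 against 88.5 FPKM. In HHZ, CML42 had 8.54 FPKM after 3 days and 669 in the control, and in H471 13.8 and 369, so the near loss of this transcript was seen in each genotype.

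Transcripts of clade A phosphatases, ABA-related bZIP factors and protective proteins were mostly higher in droughted P28. Those of receptors were less so, and those of SnRK2 kinases went in both directions. The activity of the pathway was not measured. Of the 6 dehydrins 5 were higher, with a median log2 difference of 2.26 against -0.04 over all kept genes. RAB16B (LOC_Os11g26780), which neighbours RAB16A and may share reads with it, had 64.5 FPKM in droughted P28 against 0.0712 in the control. LIP9 (LOC_Os02g44870) had 72.3 against 14.3 FPKM. The most abundant dehydrin, WSI724 (LOC_Os03g45280), had 618 against 407 FPKM and did not reach the size limit. All 6 rose in the limma test across genotypes. LEA3-1 (LOC_Os05g46480), a group 3 LEA protein, had 34.4 against 0.512 FPKM. LEA3-2 and EMP1, which are seed proteins in many cereals, stayed under 1 FPKM in both groups.

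Of the 8 clade A PP2C genes listed 7 were higher in droughted P28 and all 8 rose in the limma test. The HAI2 homolog LOC_Os05g38290 named above is not in this list. LOC_Os05g49730 had 16 FPKM after 3 days against 0.0455 in the control, LOC_Os01g62760 had 302 against 45.5, and LOC_Os05g46040 had 235 against 37.7. LOC_Os05g51510 was the exception by size, with 21.1 against 14.2 FPKM. Of the 11 ABA receptor genes only 4 were kept, and the PYL8 homolog LOC_Os02g15640 was the 1 higher gene among them, with 45.2 FPKM in droughted P28 against 19.7 in the control. The median of these 4 was 0.19.

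The 10 SnRK2 kinases moved apart. SAPK4 (LOC_Os01g64970) had 43.7 FPKM in droughted P28 against 7.42 in the control, and SAPK1 (LOC_Os03g27280) had 47.8 against 14.4. SAPK3 and SAPK5 were also higher. By contrast SAPK2 (LOC_Os07g42940) had 67.1 against 186 FPKM and SAPK9 (LOC_Os12g39630) had 55.6 against 160.3. The 4 higher and 2 lower kinases each passed the limma test in their direction, and SAPK7 rose without reaching the size limit. SAPK8 and SAPK10, which respond to ABA in rice, had 41.6 against 38 FPKM and 10.1 against 10.

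Among genes of ABA synthesis and breakdown 2 of 7 were higher and 1 was lower. NCED3 (LOC_Os03g44380), of the dioxygenase family that makes the ABA precursor, had 11.7 FPKM in droughted P28 against 0.945 in the control, while NCED5 (LOC_Os12g42280) had 1.06 against 5.72. ABA8ox1 (LOC_Os02g47470), an ABA-degrading hydroxylase, had 15.8 against 4.44 FPKM. Of the same family ABA8ox2 (LOC_Os08g36860) had 15.9 against 29.1 FPKM and fell in the limma test, and ABA8ox3 (LOC_Os09g28390) had 6.08 against 5.3. Transcripts for making and for degrading the hormone thus each went in both directions. Of the 5 bZIP factors kept, 4 were higher: bZIP23 (LOC_Os02g52780) had 58.4 against 21.3 FPKM, bZIP12 had 54.9 against 17, bZIP72 had 41.1 against 13.4 and bZIP66 had 31.3 against 11. The homolog of ATHB7 (LOC_Os04g45810), an ABA-responsive homeodomain factor in Arabidopsis, had 98.2 against 1.74 FPKM.

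**Figure D2:**
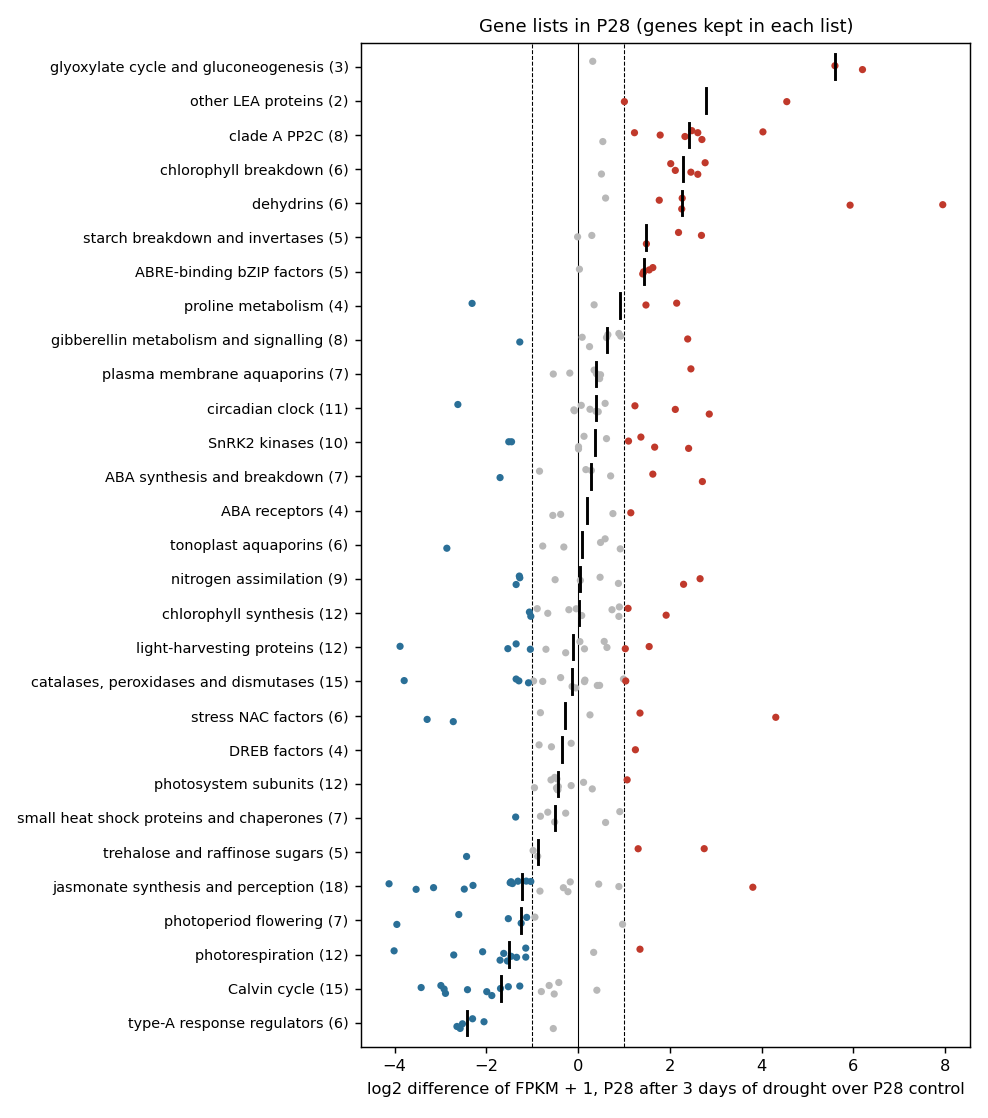
Log2 difference of FPKM + 1 between P28 after 3 days of drought and the P28 control for the kept members of lists fixed by gene identifier. Each point is a gene, the black bar is the list median, red and blue points lie past a log2 difference of 1 upward and downward, and the number of kept genes stands in brackets. Glyoxylate cycle genes, LEA proteins, PP2C genes, chlorophyll breakdown genes and dehydrins lie to the right, and type-A response regulators, the Calvin cycle and photorespiration lie to the left.

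Carbon fixation genes were lower after 3 days, while the photosystem genes as a group were little changed in size. Of the 15 Calvin cycle genes 10 were lower in droughted P28 and none was higher, with a median of -1.69, and 12 fell in the limma test. A small subunit gene of Rubisco, RbcS (LOC_Os12g17600), had 445 FPKM in droughted P28 against 3381 in the control, and LOC_Os12g19381 had 468 against 3478. The RbcS copies are nearly identical, so reads may be split between them in an uncertain way. GAPA (LOC_Os04g38600), a chloroplast glyceraldehyde-3-phosphate dehydrogenase, had 29.4 against 323 FPKM. Rubisco activase, Rca (LOC_Os11g47970), stood apart with 410.0 FPKM in droughted P28 against 307 in the control and was the single list member that rose in the limma test.

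Of the 12 photosystem subunit genes 1 was higher and none lower, with a median of -0.44, although 6 fell in the limma test. The 12 light-harvesting genes kept had a median of -0.12, with 2 higher and 4 lower. Lhca3 (LOC_Os02g10390), an antenna protein of photosystem I, had 1552 FPKM in droughted P28 against 529.7 in the control. PsbS (LOC_Os01g64960), which dissipates excess light as heat, had 18.4 against 285 FPKM, a log2 difference of -3.88. Lhcb4 (LOC_Os07g37240) had 482 against 1395 FPKM. Antenna genes thus differed from each other in direction within the same leaves.

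Photorespiration returns the carbon lost when Rubisco takes up oxygen, and 10 of its 12 genes were lower, with a median of -1.50. GLDH (LOC_Os10g37180), a subunit of glycine decarboxylase, had 41.8 FPKM in droughted P28 against 688 in the control, and GLDT (LOC_Os04g53230) of the same complex had 33.4 against 225. The exception was a P-protein gene of that complex, GLDP (LOC_Os01g51410), with 101 against 39.1 FPKM, while the other P-protein gene (LOC_Os06g40940) had 169 against 522. The 10 lower genes all fell in the limma test, and LOC_Os01g51410 rose.

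Chlorophyll breakdown genes were higher in droughted P28 in 5 of 6 cases, with a median of 2.29, and all 6 rose in the limma test. SGR (LOC_Os09g36200), the stay-green protein that removes magnesium from chlorophyll, had 110.5 FPKM in droughted P28 against 15.4 in the control. PAO (LOC_Os03g05310) and RCCR (LOC_Os10g25030), which act in turn to open the ring and reduce the product, had 153 against 34.4 FPKM and 244 against 43.6 FPKM. NYC3 (LOC_Os06g24730), a pheophytinase, had 289 against 70.5 FPKM. Chlorophyll synthesis gave no common direction: 2 of 12 genes were higher, among them CAO1 (LOC_Os10g41780) for chlorophyll b with 87.3 against 22.3 FPKM, and 2 were lower, among them HEMA (LOC_Os10g35840) at the entry to the pathway with 39.9 against 84.3 FPKM. The median of the synthesis genes was 0.02.

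The glyoxylate cycle turns acetyl units from fatty acids into organic acids and is best known from germinating oilseeds and ageing leaves. Isocitrate lyase, ICL (LOC_Os07g34520), had 74.6 FPKM in droughted P28 against 0.0275 in the control, and malate synthase, MS (LOC_Os04g40990), had 74.9 against 0.562. After 1 day of drought these transcripts stood at 0.519 and 0.337 FPKM in P28, so they were high in the 3-day leaves and low in the other P28 leaves. The order held in HHZ, with 113 FPKM of ICL after 3 days against 0.07 in the control, and in H471, with 242 against 0.119. PEPCK (LOC_Os03g15050), which carries such acids on towards sugar, had 342 FPKM in droughted P28 against 274 in the control. The malate synthase gene lies on chromosome 4 and was amplified in the study by the following designed primers, shown because they define the stretch by which this transcript can be measured again.
MS forward: ggacgacttcctcacgct
MS reverse: ggagaagttacacggagagaat

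Sugar metabolism genes with higher values included sucrose synthases and starch synthesis enzymes. SUS4 (LOC_Os03g22120), a sucrose synthase, had 397 FPKM in droughted P28 against 60.9 in the control, and SUS1 (LOC_Os03g28330) had 33.2 against 6.5. Of the 15 starch synthesis genes kept 6 were higher and 1 lower. Starch synthase I (LOC_Os06g06560) had 34.3 against 3.24 FPKM and a starch branching enzyme (LOC_Os04g33460) had 157 against 26, whereas the ADP-glucose pyrophosphorylase large subunit APL1 (LOC_Os03g52460) had 31.9 against 74.4. The named enzymes that build the chains and the one that supplies ADP-glucose thus differed in direction. GolS2 (LOC_Os07g48830), a galactinol synthase at the entry to raffinose sugars, had 31.3 against 3.81 FPKM.

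Transporters annotated for sugars, which take in carriers of nucleotide sugars, were higher for 12 of 47 kept genes (25.5%) and lower for 3. A member of the MtN3 (SWEET) family, LOC_Os12g29220, had 11.8 FPKM in droughted P28 against 1.3 in the control. The sugar carrier STP7 (LOC_Os09g24924) had 83.5 against 318 FPKM.

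Proline, a compatible solute of dry cells, is made by P5CS and removed by ProDH. P5CS1 (LOC_Os05g38150) had 114 FPKM in droughted P28 against 24.9 in the control, P5CS2 (LOC_Os01g62900) had 15 against 4.72, and ProDH (LOC_Os10g40360) had 7.15 against 39.4. P5CS1 and P5CS2 rose and ProDH fell in the limma test, while P5CR (LOC_Os01g71990), which completes synthesis, had 34.9 against 27.1 FPKM and was not called. In HHZ, P5CS1 had 178 against 26.4 FPKM and in H471 116 against 26.

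Nitrogen assimilation genes went in both directions, with 2 higher and 3 lower of 9. GS2 (LOC_Os04g56400), the chloroplast glutamine synthetase, had 133 FPKM in droughted P28 against 324 in the control, and ferredoxin-dependent glutamate synthase (LOC_Os07g46460) had 124 against 318. The NADH-dependent enzyme NADH-GOGAT2 (LOC_Os05g48200) had 228 against 35.3 FPKM, and nitrite reductase (LOC_Os01g25484) had 36.6 against 6.65. These lower genes fell and these higher genes rose in the limma test.

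Antioxidant enzymes were mostly within the size limit, with 1 higher (6.67%) and 4 lower (26.7%) of 15, against 9.89% and 14.7% of all kept genes. The cytosolic ascorbate peroxidase APX2 (LOC_Os07g49400), which removes hydrogen peroxide, had 75.5 FPKM in droughted P28 against 1061 in the control, with 1102 after 1 day. CatC (LOC_Os03g03910), a leaf catalase, had 371 against 947 FPKM, and CatB (LOC_Os06g51150) had 216 against 108. The manganese superoxide dismutase of mitochondria (LOC_Os05g25850) was the 1 higher gene, with 274 against 133 FPKM. APX2 had 65.3 against 883 FPKM in HHZ and 69.5 against 799 in H471.

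Water channels and heat-stress chaperones differed between the drought days of P28, which share the control. Plasma membrane aquaporins (PIP) pass water across the cell membrane. Their median log2 difference from the control was 3.92 after 1 day and 0.40 after 3 days, over 7 of 11 genes kept, and the summed FPKM of the list was 1059 in the control, 6084 on day 1 and 1001 on day 3. PIP2;1 (LOC_Os07g26690) stood at 46, 828 and 64.1 FPKM in the same order. PIP2;6 (LOC_Os04g16450) was the 1 gene of the list that was higher after 3 days, with 16.7 FPKM against 2.23 in the control. PIP2;7 (LOC_Os09g36930), the most abundant after 3 days with 504 FPKM against 571 in the control, was at 41.2 FPKM after 1 day and so ran against the others.

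The list of small heat shock proteins and chaperones summed to 53.1 FPKM in the control, 1643 on day 1 and 52.5 on day 3. A small HSP20 chaperone (LOC_Os02g54140) stood at 1.25, 657 and 2.4 FPKM in that order, and HSP101 (LOC_Os05g44340), a disaggregase, at 3.49, 89.7 and 1.55. Over the 187 chaperone genes kept by annotation, 9 were higher after 3 days and 35 lower. The cytosolic HSP90 gene LOC_Os08g39140 had 6.42 FPKM in 3-day leaves against 222 in the control, and the HSP20 gene LOC_Os02g52150 had 1.06 against 34.3.

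Several described genes stood on opposite sides of the control on the drought days of P28. HRE1 (LOC_Os09g11480), an ethylene response factor whose Arabidopsis homolog responds to low oxygen, stood at 34.1 FPKM in the control, 1.14 on day 1 and 147 on day 3. JMT (LOC_Os06g22440), annotated as a methyltransferase of jasmonic acid, stood at 10.6, 1.97 and 41.9 FPKM, and VPS60.1 (LOC_Os01g01350), of the SNF7 family, at 7.6, 0.976 and 36.3. These were low on day 1 and high on day 3. The reverse was seen for HSP20 LOC_Os06g14240 with 22.5, 326 and 0.443 FPKM, for HSP70 LOC_Os01g62290 with 37.7, 527 and 4.2, and for the heat shock factor HSFB2A (LOC_Os09g35790) with 30.9, 261 and 3.6. As a whole, 2509 genes were higher after 1 day (13.2% of 18967) and 3056 lower (16.1%).

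Clock genes also differed between the days. LHY (LOC_Os08g06110), which peaks at dawn, stood at 1.53 FPKM in the control, 426 on day 1 and 17.3 on day 3. The evening gene LUX (LOC_Os01g74020) stood at 559.9, 1.59 and 90.4 FPKM, and PRR95 (LOC_Os09g36220), which peaks between them, at 114, 94.1 and 498. Of the 11 clock genes 3 were higher and 1 lower in 3-day leaves, and LHY and PRR95 rose and LUX fell in the limma test. HHZ and H471 had the same order for LHY, with 14.2 against 1.49 FPKM and 10.6 against 2.08 FPKM after 3 days and in the control. The part of time of day in the differences of clock and photosynthesis genes was not tested. Nor was it tested for the water channels, chaperones and other genes compared between the drought days.

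Jasmonate genes were mostly lower in droughted P28: of the 18 genes for synthesis and perception 11 were lower and 1 higher, with a median of -1.22. A lipoxygenase (LOC_Os08g39840), an enzyme that begins the pathway, had 9.15 FPKM in droughted P28 against 176 in the control. JAZ repressors, which are both brakes and targets of the pathway, were lower, with 31.4 against 286 FPKM for LOC_Os07g42370 and 4.32 against 60.3 for LOC_Os10g25290. Another lipoxygenase (LOC_Os02g10120) was the higher gene, with 145 against 9.35 FPKM. The median was -0.57 in HHZ and -0.66 in H471, and 11 genes of the list fell and 2 rose in the limma test. The summed FPKM of the list after 3 days and in the control was 446 and 943 in P28. It was 519 and 685 in HHZ and 465 and 753 in H471, so the controls differed more than the droughted leaves. In the limma fit with a term for P28 at 3 days, given below, 0 genes of the list reached an unadjusted p under 0.05.

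Cytokinin type-A response regulators, which are induced by cytokinin and dampen its signal, were lower for 5 of 6 genes kept, with a median of -2.41. RR9 (LOC_Os11g04720) had 5.58 FPKM in droughted P28 against 38 in the control, and RR10 (LOC_Os12g04500), a close copy with which it may share reads, had 7.94 against 50.4. RR2 (LOC_Os02g35180) had 2.11 against 18.4 FPKM. All 6 fell in the limma test. RR2 stood at 35.3 FPKM in P28 after 1 day, above both other P28 groups.

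Gibberellin genes gave 1 higher and 1 lower of 8. The GA2 oxidase LOC_Os05g48700, of a family that inactivates the hormone, had 4.25 FPKM in droughted P28 and was listed at 0 in the control. A GA20 oxidase (LOC_Os03g42130), of a family that makes it, had 24.3 against 60.2 FPKM. Of the same family GA20ox2 (LOC_Os01g66100) had 12.8 against 6.48 FPKM and GA20ox4 (LOC_Os05g34854) had 5.7 against 2.51. Both stayed within the size limit and rose in the limma test, and GA20ox1 (LOC_Os03g63970) was not called. Over the list 5 of the 8 genes tested rose and 1 fell. The receptor GID1 and the repressor SLR1 had 45 against 29 FPKM and 51.6 against 32.4 FPKM and rose in the limma test without reaching the size limit.

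Photoperiod flowering genes were mostly low in droughted P28. Hd3a (LOC_Os06g06320), a mobile flowering signal, had 0.0909 FPKM in droughted P28 against 5.63 in the control. Hd1 (LOC_Os06g16370), a CONSTANS homolog upstream of it, had 1.7 against 6.77 FPKM. Of 7 photoperiod genes kept 5 were lower and none higher, with a median of -1.24 in P28, -0.50 in HHZ and -0.69 in H471. Hd3a stood at only 0.416 FPKM in the HHZ control and 0.262 in the H471 control, and Hd1 had 6.07 against 8.55 FPKM in HHZ and 9.77 against 6.43 in H471. Of the 8 photoperiod genes tested 4 fell and 1 rose in the limma test across genotypes, while Hd3a and Hd1 did not pass it.

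Transcription factor families divided by type. WRKY factors, many of which act in pathogen defence, were lower for 30 of 61 kept genes (49.2%) and higher for 3, with a median of -0.99 in P28, -0.50 in HHZ and -0.43 in H471. LOC_Os09g25070, adjacent to the WRKY40 homolog named above and close to it in sequence, had 3.28 FPKM in droughted P28 against 175 in the control. LOC_Os06g43990 was higher, with 17 against 3.69 FPKM. In the limma test 37 of the 65 WRKY genes tested fell and 15 rose, against 30.1% and 27% of all genes tested.

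MYB factors were higher for 21 of 87 genes (24.1%) and lower for 11, AP2 and ERF factors for 16 and 9 of 70, and homeodomain and homeodomain-like factors for 25 and 14 of 113. The MYB48 homolog LOC_Os12g37970 had 39.9 FPKM in droughted P28 against 2.93 in the control. RAP2.2 (LOC_Os03g08470), an ethylene response factor, had 92.2 against 6.65 FPKM, while ERF-1 (LOC_Os02g43790) had 1.25 against 90.1. Within a family, then, members with the same DNA-binding domain lay at both ends.

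NAC factors were higher for 12 of 55 genes (21.8%) and lower for 18 (32.7%), against 9.89% and 14.7% of all kept genes. SNAC1 (LOC_Os03g60080), a guard-cell factor that raises drought tolerance in rice when overexpressed, had 15 FPKM in droughted P28 against 156 in the control, and 185 after 1 day. NAP (LOC_Os03g21060), a senescence factor, had 18.1 against 6.5 FPKM, and the NAM homolog LOC_Os07g48450 had 69.8 against 2.56. SNAC1 fell and the others rose in the limma test. Heat shock factors gave 4 higher and 5 lower genes of 17, among them the class C factor LOC_Os06g35960 with 49.2 against 0.742 FPKM and the HSFA4A homolog LOC_Os05g45410 with 2.63 against 37.4.

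Receptors and detoxification enzymes that stand at the plant surface or act against pathogens were lower over wide families. Wall-associated kinases, which bind pectin, were lower for 28 of 49 kept genes (57.1%) and higher for none, with a median of -1.28, and 45 of the 66 tested fell in the limma test and none rose. LOC_Os09g29520 had 3.49 FPKM in droughted P28 against 48.5 in the control. Cysteine-rich receptor-like kinases were lower for 23 of 44 genes (52.3%) and higher for 3, and LOC_Os10g04730 had 14.9 against 145 FPKM. Leucine-rich repeat kinases were lower for 45 of 160, among them SOBIR1 (LOC_Os06g18000), a co-receptor of immune receptors, with 14.6 against 135 FPKM. Each of these shares lies above the 14.7% of all kept genes that were lower.

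Genes annotated with NB-ARC or disease resistance, mostly intracellular immune receptors but with dirigent-like proteins among them, were lower for 58 of 232 genes (25%) and higher for 7. Calcium- and calmodulin-related proteins, which include calmodulin-binding proteins beside sensors and kinases, were lower for 48 of 144 (33.3%) and higher for 13, with the CIPK20 kinase homolog LOC_Os01g10890 at 90.9 FPKM in droughted P28 against 9.13 in the control. Glutathione S-transferases, which couple toxic molecules to glutathione, were lower for 27 of 51 (52.9%) and higher for 2. GSTF13 (LOC_Os01g27340) had 0.358 FPKM in droughted P28 against 23.5 in the control. Their median was -1.26 in P28, -1.15 in HHZ and -0.93 in H471.

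Thionins, chitinases and other pathogenesis-related proteins went in both directions, with 15 higher (25.9%) and 21 lower (36.2%) of 58. Over all kept genes these shares were 9.89% and 14.7%. A basic chitinase (LOC_Os10g39680) had 119 FPKM in droughted P28 against 2146 in the control, and LOC_Os01g47070 had 74.5 against 1208. A chitinase A gene (LOC_Os05g15770) had 236 against 27.4 FPKM and osmotin 34 (LOC_Os12g43450) had 40.4 against 4.31. The summed FPKM of the list was 1557 in droughted P28 against 6038 in the control.

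**Figure D3:**
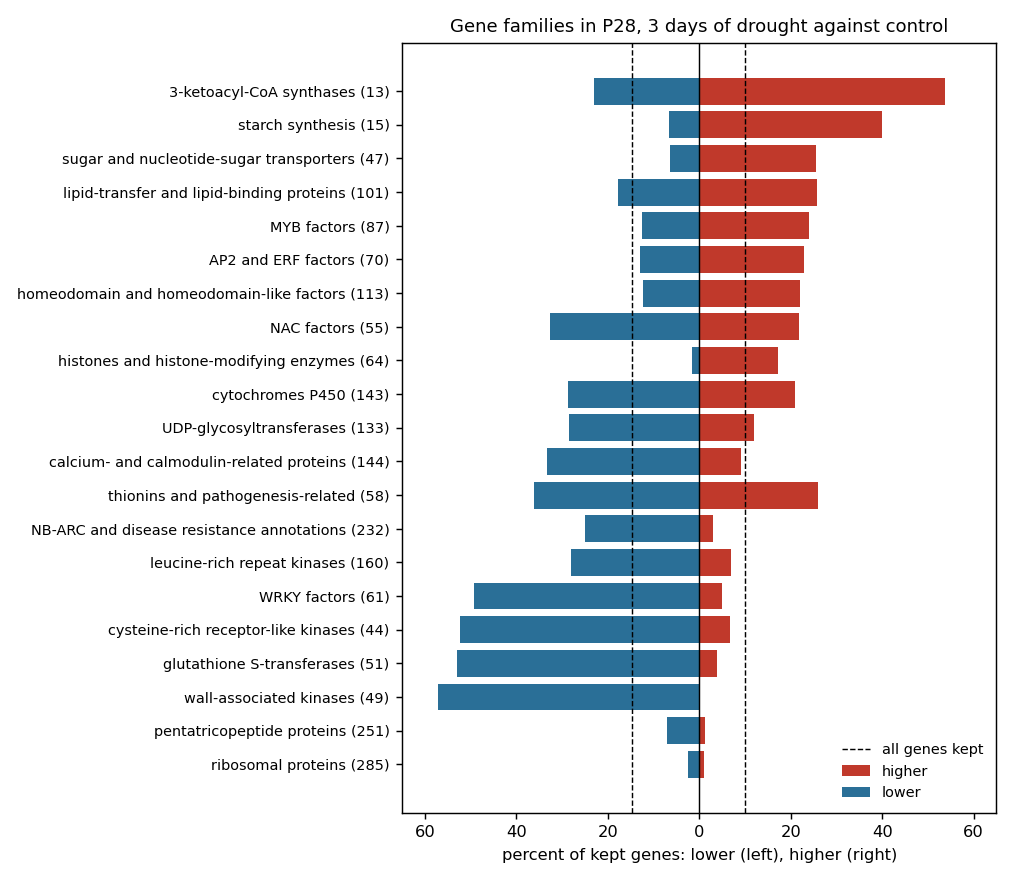
Percent of kept genes of 21 annotation families that were higher (red, to the right) or lower (blue, to the left) in P28 after 3 days of drought than in the P28 control, with the number of kept genes in brackets. Dashed lines mark the shares over all kept genes, 9.89% higher and 14.7% lower. Wall-associated kinases, glutathione S-transferases, cysteine-rich kinases and WRKY factors reach furthest to the left, and 3-ketoacyl-CoA synthases and starch synthesis genes furthest to the right.

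Genes of diterpenoid phytoalexin synthesis lay in 2 of the runs of neighbouring lower genes. Runs of at least 5 kept neighbours in the same direction were listed after the values were seen, which gave 23 lower and 4 higher runs with 151 genes. On chromosome 2, 9 neighbours between LOC_Os02g36000 and LOC_Os02g36264 were lower, and they include terpenoid cyclases and P450 enzymes of the cluster known in rice for phytocassanes. The cyclase LOC_Os02g36210 had 0.579 FPKM in droughted P28 against 28.7 in the control, and LOC_Os02g36140 had 41.2 against 199.5. On chromosome 4, 6 neighbours between LOC_Os04g09900 and LOC_Os04g10160 were lower, in the cluster known for momilactones. The cyclase LOC_Os04g09900 had 0.22 against 28.7 FPKM, the dehydrogenase LOC_Os04g10000 had 0.0648 against 13, and the P450 gene LOC_Os04g10160 had 0.185 against 29.7.

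Of these 15 genes all but LOC_Os02g36000 fell in the limma test. On chromosome 4 the log2 differences ran from -4.69 to -2.46 in P28, and LOC_Os04g09900 had -4.61 in P28, -1.80 in HHZ and -2.61 in H471. Runs of 5 glutathione S-transferases between LOC_Os01g72120 and LOC_Os01g72170 and of 5 cupins between LOC_Os08g08990 and LOC_Os08g09060 were lower as well, and a run of 5 genes with wound-responsive proteins between LOC_Os04g54210 and LOC_Os04g54310 was higher. Neighbours in such runs are often tandem copies, and reads may be shared between them.

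The 3-ketoacyl-CoA synthases condense the chains of very long fatty acids, from which waxes are made. Of 13 such genes kept 7 were higher and 3 lower, with a median of 1.05. CER6 (LOC_Os03g12030), which lengthens wax precursors, had 31.1 FPKM in droughted P28 against 6.31 in the control. KCS11 (LOC_Os06g39750) of the same enzyme family had 1.04 against 33.2 FPKM. Genes annotated with lipid transfer or lipid binding were higher for 26 of 101 genes and lower for 18, and their summed FPKM was 26384 in droughted P28 against 6183 in the control. LOC_Os12g02320 alone gave 13472 FPKM in droughted P28 against 1707 in the control, and stood at 15448 against 825 in HHZ and 11170.3 against 1171 in H471.

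Cell wall genes included higher values for secondary wall cellulose synthases. Of the 19 genes kept with a cellulose synthase annotation 6 were higher and 3 lower, with a median of 0.01. Of the 9 xyloglucan enzyme genes kept 3 were higher and none lower. CESA4 (LOC_Os10g32980) had 17.2 FPKM in droughted P28 against 0.535 in the control and CESA7 (LOC_Os09g25490) had 8.87 against 0.572. The xyloglucan enzyme XTH25 (LOC_Os06g48200) had 40.6 against 0.0766 FPKM. CESA4, CESA7 and XTH25 each rose in the limma test.

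Tonoplast aquaporins (TIP), which pass water into the vacuole, were within the size limit for 5 of 6 genes kept. TIP4;1 (LOC_Os05g14240), the most abundant in 3-day leaves, had 732 FPKM in droughted P28 against 387 in the control, and was at 8.1 FPKM on day 1. TIP1;1 (LOC_Os03g05290) had 32.2 against 55.5 FPKM and stood at 769 on day 1. The members that were highest on day 1 and on day 3 were thus different genes, as for PIP2;7 among the plasma membrane channels.

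Oxidases and sugar-conjugating enzymes of secondary metabolism were spread over both directions. P450 genes were higher for 30 of 143 (21%) and lower for 41 (28.7%), with CYP77A5P (LOC_Os01g04630) at 154 FPKM in droughted P28 against 19.2 in the control and LOC_Os06g45960 at 0.652 against 28.9. UDP-glycosyltransferases were higher for 16 of 133 (12%) and lower for 38 (28.6%). LOC_Os04g25440, the UGT85A3 homolog, had 74.4 against 2.66 FPKM, and the UGT73B5 homolog LOC_Os01g41430 had 0.62 against 59.2. Both shares of P450 genes exceed those of all kept genes.

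Proteins of turnover and growth control held a few large differences among many small ones. RING and U-box ubiquitin ligases were higher for 36 of 372 genes (9.68%) and lower for 58 (15.6%), close to the 9.89% and 14.7% of all kept genes. LOC_Os03g22680, of the CHY zinc finger type, had 47.8 FPKM in droughted P28 against 0.345 in the control, and stood at 77.7 against 0.372 in HHZ and 122 against 0.375 in H471. The BB homolog LOC_Os06g03580, named for a regulator of organ size in Arabidopsis, had 12.5 against 171 FPKM in P28. Genes annotated with auxin were higher for 11 of 77 and lower for 11 (14.3% each), among them ARF4 (LOC_Os05g48870) with 35.9 against 6.13 FPKM and the SAUR gene LOC_Os06g45970, listed at 0 in droughted P28 and at 18 FPKM in the control.

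Genes annotated with senescence were higher for 6 of 20 (30%) and lower for 3 (15%), against 9.89% and 14.7% of all kept genes. SAG12 (LOC_Os03g54130), a cysteine protease used as a senescence marker in Arabidopsis, had 5.2 FPKM in droughted P28 against 0.468 in the control and 13.2 on day 1. SAG20 (LOC_Os03g18770) had 30 against 359 FPKM. SAG12 rose and SAG20 fell in the limma test, so genes with this label did not share a direction.

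Core gene expression machinery was largely within the size limit. Of 285 ribosomal protein genes 3 were higher and 7 lower, and of 251 pentatricopeptide genes, which process organelle RNA, 3 and 18. Smaller differences were still called by limma: 110 of 291 ribosomal protein genes tested fell and 24 rose. Of 255 pentatricopeptide genes tested 119 fell and 25 rose. Genes annotated as histones or histone-modifying enzymes were higher for 11 of 64 and lower for 1, and 37 of the 66 tested rose and 10 fell. Over all genes tested 30.1% fell and 27% rose. The linker histone H1-3 (LOC_Os04g18090), which is drought-inducible in Arabidopsis, had 2521 FPKM in droughted P28 against 534 in the control. A short ribosomal protein gene, LOC_Os05g28750 (L29e), had 38386 against 15939 FPKM, and the undescribed LOC_Os06g47230 was the most abundant gene, with 99769.5 against 66728. Neither passed the limma test. In HHZ L29e had 19601 against 16809 FPKM and LOC_Os06g47230 had 85764 against 91225, and in H471 they had 24532 against 15106 FPKM and 128508 against 80958 FPKM.

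Across genotypes the P28 differences were mostly shared. Of the genes higher in P28, 1446 were higher in HHZ too, which is 77.4% of the P28 genes and 68.4% of the 2113 HHZ genes. With H471 the shared number was 1410, which is 75.4% of the P28 genes and 63% of the 2237 H471 genes. Of the lower genes 2035 were shared with HHZ (73.4% of those of P28 and 74.6% of the 2729 of HHZ) and 1976 with H471 (71.3% and 70.6% of 2798). The background shares were 11.3% higher and 14.6% lower in HHZ, and 11.9% and 14.8% in H471. The genes higher in P28 had a median log2 difference of 1.55 in HHZ and 1.53 in H471, and the lower genes of -1.47 and -1.45.

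In all 3 genotypes 1263 genes were higher and 1714 lower by size. Of the 18899 genes kept for P28, 276 were higher and 474 lower in P28 alone. Conversely, 343 genes were higher and 370 lower in HHZ and H471 but not in P28. The limma test across genotypes called 5562 genes as risen (27% of 20568 tested) and 6201 as fallen (30.1%). Of the genes higher in P28 1741 rose and none fell, and of the lower genes 2542 fell and none rose. The P28 values that chose these genes are part of the test, so these counts are not independent support. Opposite calls by size in P28 and in both others were limited to 3 genes in each direction. The clearest of these by level was TOM5 (LOC_Os12g38650), a subunit of the mitochondrial import receptor, with 1100.2 FPKM in droughted P28 against 319 in the control, 318 against 831 in HHZ and 763 against 1675 in H471.

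Whether the 3-day value of P28 departs from what its genotype and the treatment predict was tested by a further term in the limma fit. A single gene was past the threshold, 0.00486% of the genes tested. This gene, LOC_Os02g41880, is undescribed, had 27.1 FPKM in droughted P28 and was listed at 0 in the other 8 groups. It entered the fit only through that 1 value, no spread stands behind the call, and the values are given as a description. The call was lost with a pseudocount of 0.1 (adjusted p = 0.54 by limma) and without the 1-day groups (adjusted p = 0.744). At an unadjusted p under 0.05 there were 517 genes above (2.51%) and 674 below (3.28%) the prediction. TOM5 and the other 5 genes of opposite direction did not pass. The difference of P28 was below that of both other genotypes for 37.9% of kept genes and above both for 30.7%. Among dehydrins it was below both for 5 of 6 genes, among the listed clade A PP2C genes above both for 6 of 8. No gene of either list passed the adjusted test.

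**Figure D4:**
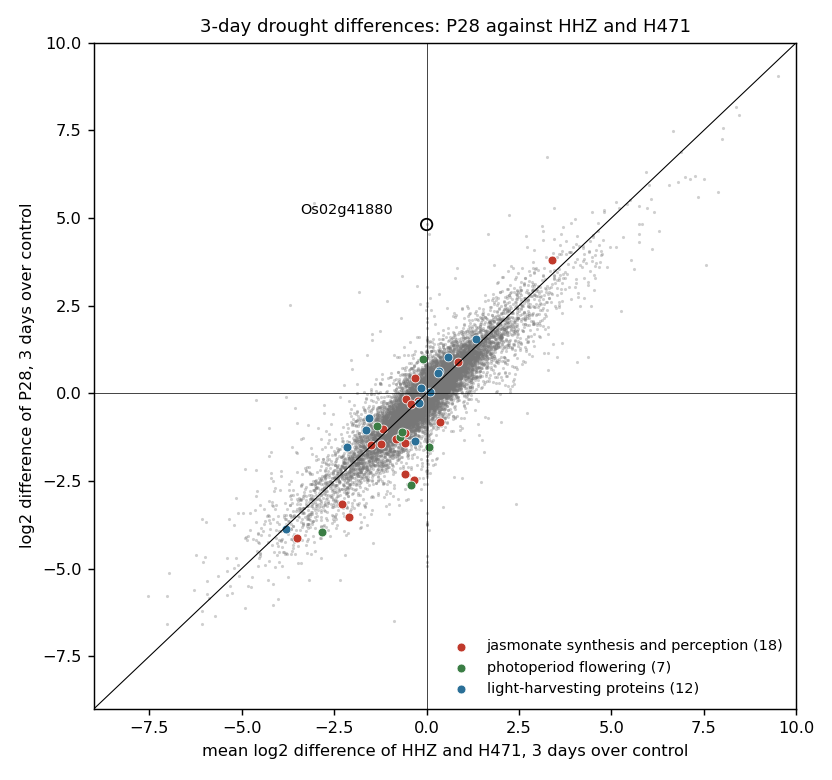
Log2 difference of FPKM + 1, 3 days of drought over control, in P28 (y axis) and as the mean of HHZ and H471 (x axis), with 1 point per kept gene. The line marks equal differences, coloured points are the jasmonate, photoperiod flowering and light-harvesting lists, and the ring marks LOC_Os02g41880, with 27.1 FPKM in droughted P28 and 0 elsewhere. Most points lie along the line.

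A few named genes had P28 values unlike those of the other genotypes without passing the adjusted test. The wall-associated kinase WAK4 (LOC_Os02g42190) had 0.675 FPKM in droughted P28 against 24.1 in the control, and 0.098 against 0.0285 in HHZ (adjusted p = 0.812 by limma). The bZIP9 homolog LOC_Os12g40920 had 95.8 against 30.8 FPKM in P28, 44.4 against 28.9 in HHZ and 41.1 against 29.9 in H471 (adjusted p = 0.695 by limma). SAG21 (LOC_Os01g21250), a LEA-type protein named for senescence, had 55.5 against 902 FPKM in P28, 73.4 against 195 in HHZ and 78.9 against 579.7 in H471. WAK4 thus differed from HHZ in its control level, since HHZ leaves held little of it in either condition.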

How the data were processed

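Leaf RNA of P28, HHZ and H471 was sequenced as 18 libraries, 2 for each of 3 genotypes under 3 treatments. Ribosomal RNA was depleted before library preparation with random primers. The authors aligned paired-end reads with TopHat to the rice genome and its MSU annotation and estimated expression with Cufflinks. Tool versions were stated neither in the methods nor in the labels. A single deposited table was used. The deposited table holds FPKM, the authors' single value for each group of 2 libraries, in 9 columns, together with gene descriptions and symbols largely of Arabidopsis homologs. The table gives no counts, so no interval was computed for a single value. Low values, copies of a gene family and overlapping genes are the least certain. Columns not mapped to a group numbered 0.

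Genes with at least 1 FPKM in either P28 column were compared as log2(FPKM + 1), which understates the change of low genes. Adding 1 to both values brings genes near 0 towards each other. limma 3.58.1 with R 4.3.3 was fitted with trend on the 9 columns over genes with at least 1 FPKM in any column, with genotype and treatment as terms (4 residual degrees of freedom) and with a term for P28 at 3 days (3 residual degrees of freedom), with Benjamini-Hochberg adjustment over all genes. Its p-values measure how far treatment differences vary between genotypes, not the spread between plants. The script was tested on simulated data.

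Named genes were the 12 largest increases and decreases among described genes of at least 10 FPKM, the 3 highest and 3 lowest members of each list (all members of lists of up to 12), genes called by the P28 term, the 5 most abundant genes of each P28 column, and 5 genes of each kind with opposite differences on the drought days. Other named genes were chosen after their values were seen. The members and lists were chosen with earlier results of these data known. Of 68 lists, 33 were fixed by identifier and 35 by words in the description, and 8 members whose description went against the list were dropped. Alternatives tried were other pseudocounts, filters, scalings, size limits, no trend, and fits without a genotype or without day 1. Promoter motifs were not analysed here. Primer sequences are the designed ones of the study. A member of the photoperiod list is not reported here by name.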

Additional observations from a re-analysis of the deposited data

Results flagged for a closer look

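LOC_Os02g41880, an undescribed gene, had 27.1 FPKM in P28 after 3 days of drought and was listed at 0 in the P28 control and in the 7 other groups. The log2 difference at 3 days stood 4.81 above that of the other genotypes. This value rests on the 1 column that is above 0, so the limma call on it has no spread behind it, and it was lost with a pseudocount of 0.1 or without the 1-day groups. Whether both P28 libraries hold the transcript was not tested, since the table gives their joint value.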

How the results depend on the processing

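The 4640 genes past the size limit in P28 after 3 days of drought (1869 higher, 2771 lower) became 2649 (1052 and 1597) with a pseudocount of 5, which shrinks low values by construction, and 1552 (543 and 1009) at a log2 limit of 2. The counts were within 1.5 times the first under the other alternatives, at 2354 and 3441 with a pseudocount of 0.1, 1458 and 2177 with at least 5 FPKM, and 1944 and 2687 after median-ratio scaling. Lower genes outnumbered higher ones under each of these. In the limma test across genotypes the 5562 risen genes became 3666 without HHZ, with fewer values in the fit, and stayed within 1.5 times otherwise. The P28 term called 6 genes without trend (4 higher, 2 lower), 16 without the filter (13 higher, 3 lower), and 0 with a pseudocount of 0.1 or without day 1 (LOC_Os02g41880: adjusted p = 0.54 and 0.744 by limma, and 0.00297 to 0.0456 under the others). At an unadjusted p under 0.05 the main fit called 1191. The cause of these changes was not tested. Of 465 named genes, 444 kept their side of the limit with a pseudocount of 0.1 and 460 after median-ratio scaling, and none reversed. Genes higher or lower in all 3 genotypes numbered 1263 and 1714, and 1045 to 1509 and 1377 to 2143 under alternatives chosen after seeing the data.

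No paired analysis was possible because each column joins both numbered libraries of a group. No replicate was left out either, and differences within P28 rest on size alone. The table holds no counts, so low values have no interval.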
